A study of Mus musculus with 8 samples.

Results

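The genes described here are 10 transcripts that the tumour suppressor p53 switches on: Cdkn1a, Mdm2, Ccng1, Phlda3, Plk2, Eda2r, Zmat3, Gdf15, Pmaip1 and Trp53inp1. They were taken by name, with earlier results of these data known, and all 10 were found among the 32285 genes of the count table. The table came from 8 single-cell RNA libraries of lungs from wild-type C57BL6/J mouse pups at 5 days of age. The lung cells had been frozen in DMSO and serum, thawed, and sorted by flow cytometry into the endothelial, epithelial and immune fractions. Of these libraries, 4 came from pups kept in 65% oxygen (hyperoxia, labelled as BPD, the bronchopulmonary dysplasia model) and 4 from pups kept in 21% oxygen (air, labelled healthy). Both groups had been exposed before birth to LPS, a bacterial cell wall component, at day 14 of gestation, and no group without LPS was included.

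No label matched a column of the table, so cells were assigned to no library and hyperoxia was not compared with air. The table is treated as 1 pooled sample, no test was possible, and every interval below is a 95% interval for counting error only. The 11806 cells held 77020720 unique molecular identifiers (UMIs, each marking a captured transcript), with a median of 4425 per cell. The barcodes fell into 8 alphabetical runs of 282 to 3355 cells and 2574027 to 17841702 UMIs, and 12 barcodes occurred in more than 1 run. The column names carried 7 merge suffixes for these 8 runs. A run is not a known library, so values and counts by run are descriptions, and runs are not replicates.

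p53 is a transcription factor that is kept scarce by the ubiquitin ligase Mdm2 and accumulates after DNA damage and oxidative stress, both of which high oxygen is known to cause in the lung. Its targets halt the cell cycle, prime cells for death, restrain survival signalling and switch p53 itself off again. Most of them also answer to other signals, so their transcripts are no direct reading of p53 activity. p53 binds DNA at pairs of a short palindromic half-site.

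Of the 10 genes, 7 had start-site windows in the RefSeq table (GRCm38.p6, 250 bases before to 50 after each start, 9 windows in all), and 3 of the 7 held at least 1 p53 half-site. Among all 32851 windows, 2745 (8.36%) held one, and 24 (0.0731%) held a pair no more than 13 bases apart. The 90 bases around the matches are shown for the 3 genes that held one, with the half-sites in capitals. They lie on chr10:117710890-117710979 (minus strand) for Mdm2, chr11:40755417-40755506 (minus strand) for Ccng1 and chr17:29090871-29090960 (plus strand) for Cdkn1a, all before the start and overlapping no annotated transcript. The genes themselves span chr10:117688875-117710758 (Mdm2), chr11:40748552-40755311 (Ccng1) and chr17:29090976-29100727 (Cdkn1a) in GENCODE vM21 on GRCm38. Of the others, Phlda3 spans chr1:135766119-135769136, Plk2 chr13:110395046-110400844, Eda2r chrX:97333840-97377216, Zmat3 chr3:32334792-32366014, Gdf15 chr8:70629393-70632456 and Trp53inp1 chr4:11156431-11174379.
Mdm2: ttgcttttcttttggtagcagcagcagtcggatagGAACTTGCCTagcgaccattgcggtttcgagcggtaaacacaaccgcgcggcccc
Ccng1: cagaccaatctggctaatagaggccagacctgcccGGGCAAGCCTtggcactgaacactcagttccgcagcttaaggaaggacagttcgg
Cdkn1a: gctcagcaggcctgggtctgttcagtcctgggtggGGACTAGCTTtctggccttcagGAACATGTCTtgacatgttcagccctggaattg
The half-site pattern reads the same on both strands, so each match counts for both. The first matched base lay 186 bases before the start in Mdm2, 185 in Ccng1, and 73 and 51 in Cdkn1a, the only gene of the 7 with a pair. A match is a description of the letters and not a measured binding site.

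Cells were sorted into groups by UMI gates that use none of the 10 genes. Endothelium needed at least 2 UMIs of Cdh5 and Cldn5 together and was split by Car4 and Ednrb (the capillary type that lies against the alveolus, called Car4-gate) and by Gpihbp1, Plvap and Aplnr (general capillary-gate). Each of these splits again asked for 2 UMIs. Flat alveolar type 1 (AT1) cells were gated on at least 3 UMIs of Rtkn2, and surfactant-making alveolar type 2 (AT2) cells on Sftpc at 3% or more of their UMIs. Alveolar macrophages were gated on Ear1 and Marco, nonclassical monocytes on Ace and Adgre4, and T cells on Cd3e and Trac, at 2 UMIs of each pair. Classical monocytes needed 2 UMIs of F13a1 and 1 of Ly6c2, and neutrophils S100a8 and S100a9 at 2% of their UMIs and 1 UMI of Csf3r. A last gate asked for at least 10 UMIs of Dppa5a, a gene of pluripotent cells. This gave 108 Car4-gate, 143 general capillary-gate and 137 further endothelial cells, 96 AT1-gate and 708 AT2-gate cells, 910 alveolar macrophage-gate cells, 390 classical and 2270 nonclassical monocyte-gate cells, 387 neutrophil-gate, 660 T-gate and 293 Dppa5a-gate cells. A further 5168 cells passed no gate. Another 522 cells passed more than 1 gate, and 14 endothelial cells passed both capillary gates. Both sets were kept apart. Of the 609 cells that passed the endothelial gate, 402 passed no other gate and 182 also passed the nonclassical monocyte gate. The endothelial groups therefore leave out these 182 cells.

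The gate names were checked against marker genes that the gates do not use. All 6 listed markers reached 2-fold over the rest of the cells in the Car4, AT1, AT2, alveolar macrophage, nonclassical monocyte, neutrophil, T and Dppa5a gates, and 5 of 6 did in the general capillary gate (not Lpl) and in the classical monocyte gate (not Chil3). This did not set the capillary gates against each other. In the Car4 gate 4 of 6 general capillary markers also passed, and in the general capillary gate 4 of 6 Car4 capillary markers. Endothelium with neither gate passed for 5 of 6 of each list. The ungated cells held markers of several types, among them all 4 of B cells, natural killer cells and interstitial macrophages. Sftpc, the AT2 gate gene, was also found in the other groups of at least 50 cells (cells of more than 1 gate aside), at 34.8 to 1196 CPM (UMIs of a gene per 1000000 UMIs of a group), against 132992 CPM in AT2-gate cells. In Car4-gate cells the 5% of cells with most Sftpc held 93.5% of its UMIs, against 23.9% in neutrophil-gate cells, and whether it came from free RNA was not tested. The Car4 capillary markers summed to 4631 CPM in Car4-gate cells and 637 CPM in general capillary-gate cells. The general capillary markers summed to 1034 CPM and 2795 CPM in the same groups, and to 2878 CPM in endothelium with neither gate. Depth also differed, from a median of 2044 UMIs per cell in endothelium with neither capillary gate to 11446 in Dppa5a-gate cells, so levels are given as CPM and shares of cells after thinning each cell to 2000 UMIs.

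The 10 genes had their highest levels in 5 different groups. Plk2 and Phlda3 led in Car4-gate endothelium, Gdf15 in alveolar macrophages, Pmaip1 in nonclassical monocytes, Cdkn1a and Mdm2 in neutrophils, and Ccng1, Eda2r, Zmat3 and Trp53inp1 in Dppa5a-gate cells. In its leading group 8 of 10 members stood at least 2-fold above all other cells, where 75.6% of the 15582 genes with at least 50 UMIs did so, so that count is near the background. The leading group was picked for being highest, and its fold is a description.

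**Figure D1:**
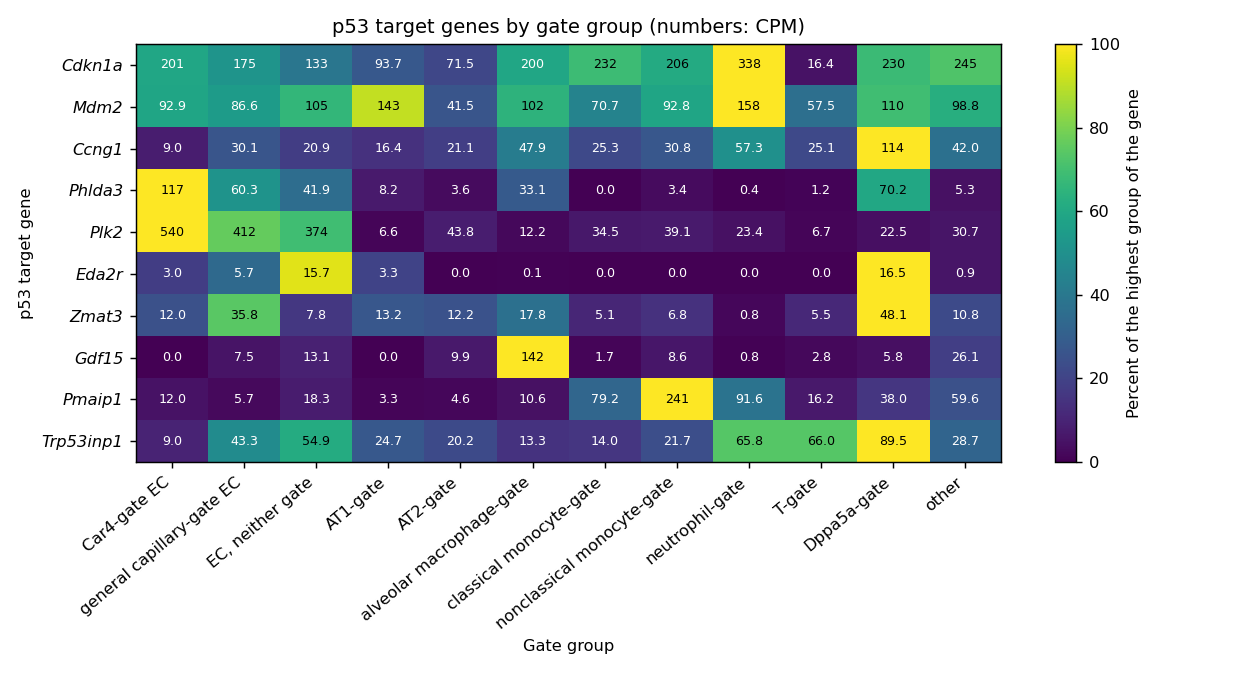
Heat map of the 10 p53 target genes (rows) in 12 gate groups (columns), with the level in CPM printed in each cell and the colour giving the percent of that gene's highest group. The brightest cells fall in 5 different columns, from Plk2 at 540 CPM in Car4-gate endothelium to Pmaip1 at 241 CPM in nonclassical monocyte-gate cells. EC stands for endothelium, and other for ungated cells.

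Mdm2, the ligase that marks p53 for degradation, had the smallest ratio of highest to lowest level of the 10 genes. It had 158 CPM in neutrophil-gate cells (143 to 174), against 90.3 CPM in all other cells, a fold of 1.75 (1.57 to 1.93). AT1-gate cells followed with 143 CPM (115 to 176), and these intervals overlap. The lowest level was 41.5 CPM in AT2-gate cells, and the other groups lay between 57.5 and 110 CPM. Mdm2 was above the other cells of the run in 5 of 5 runs for neutrophil-gate cells and in 8 of 8 for alveolar macrophage-gate cells.

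Cdkn1a encodes p21, an inhibitor of cyclin-dependent kinases that halts division. It reached 338 CPM in neutrophil-gate cells (316 to 362), against 199 CPM in all other cells, a fold of 1.70 (1.58 to 1.82). That level was uneven across the runs: it was 355, 390 and 394 CPM in runs 1, 6 and 8, and 19.8 and 84.5 CPM in runs 2 and 7, where only 19 and 31 neutrophil-gate cells were found. It was above the other cells of the run in 3 of 5 runs. Run 1 held 240 of the 387 neutrophil-gate cells. Ungated cells had 245 CPM, classical monocyte-gate cells 232, Dppa5a-gate cells 230, nonclassical monocyte-gate cells 206, Car4-gate endothelium 201 and alveolar macrophage-gate cells 200 CPM. These levels overlap in part within their counting intervals. AT1-gate and AT2-gate cells held less, 93.7 and 71.5 CPM.

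T-gate cells stood apart at the low end. Cdkn1a had 16.4 CPM in T-gate cells, against 216 CPM in all other cells, a fold of 0.076 (0.060 to 0.094). The level was 6.35 to 31.9 CPM in T-gate cells over 7 runs, with a median of 14.9, and it was above the other cells of the run in 0 of 7. After thinning, 11 of 639 T-gate cells (1.72%, 0.862 to 3.06) held a Cdkn1a UMI, against 134 of 360 neutrophil-gate cells (37.2%, 32.2 to 42.4). Without thinning the shares were 5.91% and 50.6%. Of the UMIs in T-gate cells, 92.6% lay in the 5% of cells with most of them. A gene on the opposite strand, AC167363.2, overlaps Cdkn1a, and how the counting treated strand is not given in the sources used here. None of the other 9 genes overlaps an annotated gene.

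Among the groups of at least 50 cells, neutrophil-gate cells also had the highest sum of the immediate early and heat shock transcripts, genes that respond within minutes to handling and other stimuli. The 8 listed genes summed to 7618 CPM in neutrophil-gate cells, 5509 in classical monocyte-gate cells, 1343 in T-gate cells and 140 in Dppa5a-gate cells. The part of this difference in the levels of Cdkn1a was not tested.

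Ccng1 encodes cyclin G1, which acts with a phosphatase to feed back on Mdm2. It had 114 CPM in Dppa5a-gate cells (104 to 125), against 37.6 CPM in all other cells, a fold of 3.03 (2.75 to 3.35). Neutrophil-gate cells had 57.3 CPM and alveolar macrophage-gate cells 47.9, and the lowest level was 8.99 CPM in Car4-gate endothelium, from 3 UMIs. The Dppa5a-gate level ranged from 82.2 to 179 CPM over 5 runs and was above the other cells in all 5.

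Plk2, a polo-like kinase, was the endothelial gene of the set. It had 540 CPM in Car4-gate endothelium (464 to 624), 412 CPM in general capillary-gate endothelium (360 to 471) and 374 CPM in endothelium with neither gate (315 to 441), and the first and second of these intervals overlap slightly. All groups outside the endothelium lay between 6.58 and 43.8 CPM, with the highest in AT2-gate cells. The fold of Car4-gate cells over all other cells was 14.0 (11.9 to 16.2). By run the Car4-gate level was 341 to 677 CPM with a median of 625, above the other cells in 5 of 5 runs. The 177 cells that passed the endothelial and nonclassical monocyte gates alone had Plk2 at 465 CPM, with the endothelial marker Pecam1 at 1186 and the monocyte marker Treml4 at 15.8 CPM.

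Pmaip1 encodes Noxa, a BH3-only protein that frees the death machinery by binding Mcl1. It had 241 CPM in nonclassical monocyte-gate cells (232 to 250), against 47.2 CPM in all other cells, a fold of 5.10 (4.85 to 5.37). Neutrophil-gate cells followed at 91.6 CPM and classical monocyte-gate cells at 79.2 CPM, and these intervals overlap. Endothelial, epithelial and alveolar macrophage groups lay between 3.29 and 18.3 CPM. In nonclassical monocyte-gate cells the level ranged from 130 to 403 CPM over 8 runs, with a median of 232, above the other cells in all 8. After thinning, 728 of 1954 of these cells (37.3%, 35.1 to 39.4) held a Pmaip1 UMI, against 20 of 900 alveolar macrophage-gate cells (2.22%, 1.36 to 3.41). Without thinning the shares were 53.2% and 7.36%, at median depths of 3780 and 7438 UMIs.

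Phlda3, a small protein that holds back the survival kinase Akt, was found in 3 separate places. It had 117 CPM in Car4-gate endothelium (83.1 to 160), against 13.6 CPM in all other cells, a fold of 8.60 (6.08 to 11.8). Without run 1, which held 13 of its 39 UMIs, the fold was 5.72. By run the Car4-gate level was 0 to 239 CPM with a median of 127, above the other cells in 4 of 5 runs. Dppa5a-gate cells had 70.2 CPM and alveolar macrophage-gate cells 33.1 CPM. Classical monocyte-gate cells held 0 UMIs in 390 cells, which allows a level of up to 1.02 CPM and a share of cells with a UMI of up to 0.769%. Neutrophil-gate cells held 1 UMI and T-gate cells 6.

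Eda2r, the receptor for ectodysplasin A2, was the scarcest, with 138 UMIs in all cells. Dppa5a-gate cells held 68 of them, at 16.5 CPM (12.8 to 20.9), against 0.960 CPM in all other cells, a fold of 17.1 (12.1 to 24.3). Endothelium with neither capillary gate had 15.7 CPM (5.76 to 34.2) from 6 UMIs in 4 cells, and the 2 levels cannot be ordered. It became the higher of the 2 without run 1, run 6 or run 7, at 18.1, 18.2 and 18.5 CPM. Without run 5 the fold of Dppa5a-gate cells over all other cells was 27.9. The AT2, classical monocyte, nonclassical monocyte, neutrophil and T gates held 0 UMIs, which allows up to 0.242 CPM in nonclassical monocyte-gate cells and up to 1.21 CPM in neutrophil-gate cells.

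Trp53inp1, a nuclear and autophagy protein that supports p53, had 89.5 CPM in Dppa5a-gate cells (80.6 to 99.1), against 29.8 CPM in all other cells, a fold of 3.01 (2.68 to 3.36). T-gate and neutrophil-gate cells followed at 66.0 CPM (59.0 to 73.6) and 65.8 CPM (56.1 to 76.7), levels that overlap. Car4-gate endothelium had the lowest level, 8.99 CPM from 3 UMIs. In T-gate cells it ranged from 38.1 to 103 CPM over 7 runs, above the other cells in all 7, which is the reverse of Cdkn1a in the same cells.

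Zmat3, an RNA-binding zinc finger protein, had 48.1 CPM in Dppa5a-gate cells (41.7 to 55.3), against 11.2 CPM in all other cells, a fold of 4.30 (3.66 to 5.03). General capillary-gate endothelium had 35.8 CPM (21.5 to 55.9), an interval that overlaps the first, from 19 UMIs of which 1 cell held 9. Neutrophil-gate cells had 0.807 CPM from 2 UMIs, the lowest.

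Gdf15, a secreted cytokine of the TGF-beta superfamily that tells the brain of tissue stress, was highest in alveolar macrophage-gate cells. It had 142 CPM in alveolar macrophage-gate cells (134 to 150), against 15.1 CPM in all other cells, a fold of 9.37 (8.61 to 10.2). The level ranged from 3.84 CPM in run 6, with 13 cells, to 201 CPM in run 7, with a median of 129, and was above the other cells in 8 of 8 runs. Ungated cells had 26.1 CPM, in a group of 30012883 UMIs of all genes against 8054960 in alveolar macrophage-gate cells. AT1-gate and Car4-gate cells held 0 UMIs of Gdf15. Gdf15 is also a target of the integrated stress response, whose 5 listed genes summed to 191 CPM in alveolar macrophage-gate cells and 190 in nonclassical monocyte-gate cells. The sum of 479 CPM in Dppa5a-gate cells, which held Gdf15 at 5.81 CPM, was mostly the asparagine synthetase Asns at 375 CPM. The transcription factors of that response, Atf4 and Ddit3, were at their lowest of the 12 groups there, at 81.1 and 10.4 CPM. The part of this response in the Gdf15 levels was not tested.

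**Figure D2:**
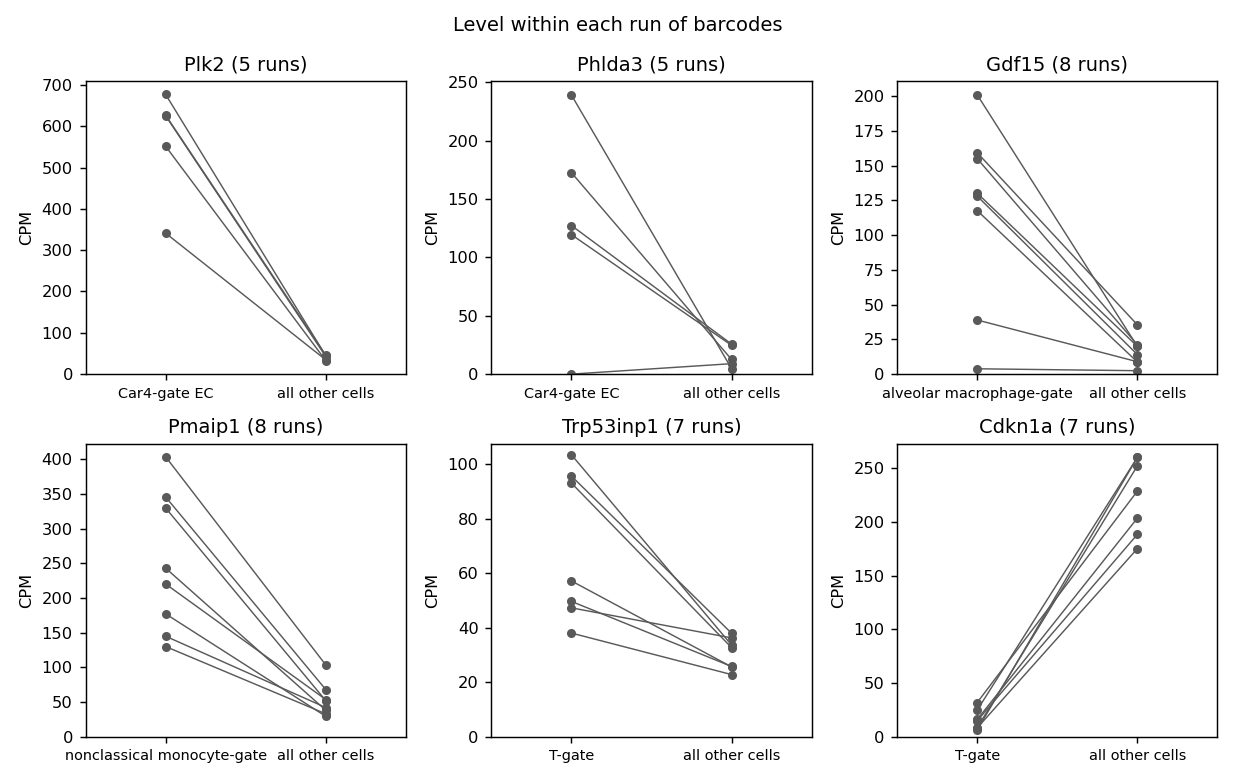
Level in CPM within each run of barcodes that held at least 10 cells of the group, with a line joining the gate group (left) to all other cells of the same run (right). Plk2, Gdf15, Pmaip1 and Trp53inp1 were higher in the named group in every run shown, Phlda3 in 4 of 5, and Cdkn1a was lower in T-gate cells in 7 of 7. Each point is 1 run, which is not a known replicate.

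Taken group by group, T-gate and AT2-gate cells had the fewest p53 target transcripts. In T-gate cells 9 of 10 members were at least 1.5-fold below all other cells, where 45.0% of 17763 genes were, and only Trp53inp1 was higher (2.15-fold, 1.91 to 2.41; 17.8% of genes were at least 1.5-fold higher). Their median fold was 0.18, against 0.77 over all genes tested. Trp53 itself was not low there, at 98.0 CPM in T-gate cells (89.5 to 107), above the other cells in 7 of 7 runs. T-gate cells also held 3 of 4 natural killer cell markers at least 2-fold above all other cells, and cell cycle genes at 913 CPM, and the part of these in the result was not tested. In AT2-gate cells 8 of 10 members were at least 1.5-fold lower, where 43.3% of genes were. Their median fold was 0.39, against 0.78 over all genes. Eda2r held 0 UMIs in AT2-gate cells, at least 3.02-fold lower when 3 UMIs are allowed for the group. Pmaip1 had the smallest fold of the members with a UMI there, 4.64 CPM in AT2-gate cells against 83.3 CPM in all other cells, while Plk2 and Zmat3 differed by less than 1.5-fold. Summed over the 10 genes the level was 197 CPM in T-gate cells and 228 CPM in AT2-gate cells, and 312 to 995 CPM in the other groups of at least 50 cells.

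In the other groups the members lay on both sides of the rest of the cells. Car4-gate endothelium had 3 members at least 1.5-fold higher (28.4% of genes were) and 4 lower (49.1%), general capillary-gate endothelium 4 higher (31.3%) and 2 lower (40.2%), and endothelium with neither gate 4 higher (31.1%) and 5 lower (43.7%). Plk2, Phlda3 and Eda2r were among the higher ones in all 3 endothelial groups, Eda2r from 1, 3 and 6 UMIs. AT1-gate cells had 2 higher (32.9%), Mdm2 at 1.55-fold (1.24 to 1.92) and Eda2r from 2 UMIs, and 6 lower (42.9%). Alveolar macrophage-gate cells had Gdf15 and Phlda3 higher, 2 of 10 against 9.56% of genes, and 4 lower (45.2%).

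Among the monocyte groups, nonclassical monocyte-gate cells had Pmaip1 alone at least 1.5-fold higher (9.68%) and 5 lower (47.5%), and classical monocyte-gate cells had 0 higher (6.92%) and 6 lower (47.5%). Neutrophil-gate cells had Cdkn1a, Mdm2 and Trp53inp1 higher (11.1%) and 5 lower (61.7%). Of these Eda2r held 0 UMIs, at least 1.53-fold lower when 3 UMIs are allowed for the neutrophil-gate group, and Gdf15 and Phlda3 both had a fold of 0.028. Ungated cells, a mixture of types, had 0 higher (7.62%) and 4 lower (26.4%). Of the 15669 UMIs of Cdkn1a, 7355 lay in ungated cells, which held 30012883 of the 77020720 UMIs of all genes.

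Between Car4-gate and general capillary-gate endothelium these genes differed about as often as genes in general. Of the 6 members with at least 20 UMIs over both sides, 1 was at least 1.5-fold higher in Car4-gate cells (24.0% of 6794 genes were) and 2 were at least 1.5-fold lower (28.4%). Phlda3 had 117 CPM in Car4-gate cells, against 60.3 CPM in general capillary-gate cells (fold 1.94, 1.18 to 3.20). The fold fell under 1.5 without run 1 or without run 7 (log2 0.31 and 0.56, against 0.96). Trp53inp1 had 8.99 CPM in Car4-gate cells, against 43.3 CPM in general capillary-gate cells (fold 0.21, 0.040 to 0.687). Zmat3 had 12.0 CPM in Car4-gate cells, against 35.8 CPM in general capillary-gate cells (fold 0.34, 0.083 to 1.01). These 2 rest on 3 and 4 UMIs in Car4-gate cells. The log2 fold of Trp53inp1, -2.27, was -1.66 without run 6, -0.44 with every gate threshold doubled and -0.58 with cells of more than 1 gate put in the first they pass. That of Zmat3, -1.58, was -2.60 without run 1 and -0.36 under the same change to the first gate, so both calls end there. Plk2 (fold 1.31, 1.07 to 1.60), Cdkn1a (1.15, 0.825 to 1.59) and Mdm2 (1.07, 0.657 to 1.73) stayed under the 1.5-fold line, and Cdkn1a lay on the other side without run 7 (log2 -0.60). Of the 26 other p53 targets on the list, 2 of 13 that passed were higher and 4 lower: Fas, a death receptor, had 150 CPM in Car4-gate cells against 62.2 CPM in general capillary-gate cells, the repair polymerase Polk 45.0 against 15.1 CPM, and the polyamine enzyme Sat1 92.9 against 213 CPM.

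In the alveolar epithelium Mdm2 was the gene that differed most firmly. It had 143 CPM in AT1-gate cells (115 to 176), against 41.5 CPM in AT2-gate cells (35.9 to 47.7), a fold of 3.45 (2.65 to 4.46), and it was higher in AT1-gate cells in both runs that held 10 cells of each. Phlda3 had 8.22 CPM in AT1-gate cells against 3.58 CPM in AT2-gate cells (fold 2.29, 0.662 to 6.48), from 5 and 17 UMIs. Plk2 had 6.58 CPM in AT1-gate cells, against 43.8 CPM in AT2-gate cells (fold 0.15, 0.040 to 0.390). Gdf15 held 0 UMIs in AT1-gate cells against 47 in AT2-gate cells, where it was at least 2.01-fold lower when 3 UMIs are allowed for the AT1-gate group. Thus 2 of 9 members that passed were at least 1.5-fold higher in AT1-gate cells (40.2% of 11178 genes were) and 2 were lower (20.8%), and Cdkn1a at 1.31-fold (0.973 to 1.74) was not among them. Its log2 fold of 0.39 was -0.39 without run 1. Phlda3 no longer reached 20 UMIs with run 1, 4, 5 or 7 left out or with the gate thresholds doubled. With cells of more than 1 gate put in the first they pass, the log2 fold of Plk2, -2.74, was -1.50, and Zmat3 and Trp53inp1 stood at 1.38 and 1.12. Zmat3 was at -0.70 when run 4 was dropped. Among the other targets 7 of 23 were higher and 6 lower: Apaf1, the core of the apoptosome, had 112 CPM in AT1-gate cells against 14.1 CPM in AT2-gate cells, cyclin D1 (Ccnd1) 11.5 against 101 CPM, and the sugar reductase Dcxr 3.29 against 229 CPM. The AT1-gate group rests on 96 cells, of which 39 came from run 1 and 42 from run 6.

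The 2 monocyte groups had Cdkn1a in common and differed in Pmaip1. None of the 9 members that passed was at least 1.5-fold higher in classical monocyte-gate cells (11.5% of 11597 genes were), and 4 were lower (18.2%). Pmaip1 had 79.2 CPM in classical monocyte-gate cells, against 241 CPM in nonclassical monocyte-gate cells (fold 0.33, 0.286 to 0.376), and it was lower in 8 of 8 runs. Gdf15 had 1.71 CPM in classical monocyte-gate cells against 8.62 CPM in nonclassical monocyte-gate cells (fold 0.20, 0.063 to 0.477), and Trp53inp1 14.0 against 21.7 CPM (0.65, 0.453 to 0.900). The Gdf15 log2 fold, -2.34, became -2.99 with run 1 left out, -1.72 with run 7 left out and -0.96 with the gate thresholds doubled. Trp53inp1, at -0.63, was no longer 1.5-fold lower when run 2 (-0.46) or run 3 (-0.54) was dropped, nor with the thresholds doubled (-0.46) or cells of more than 1 gate put in the first they pass (-0.42). Phlda3, with 0 against 42 UMIs, was at least 3.30-fold lower. Cdkn1a had 232 CPM in classical monocyte-gate cells against 206 CPM in nonclassical monocyte-gate cells (fold 1.12, 1.03 to 1.22). The 6 endothelial markers summed to 32.8 CPM in classical monocyte-gate cells and 91.0 CPM in nonclassical monocyte-gate cells, and their part in the Phlda3 counts was not tested. Of the 26 other targets, 1 of 24 was higher and 6 lower, led by the BH3-only gene Bbc3 at 5.80 CPM in classical monocyte-gate cells against 24.0 CPM in nonclassical monocyte-gate cells.

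**Figure D3:**
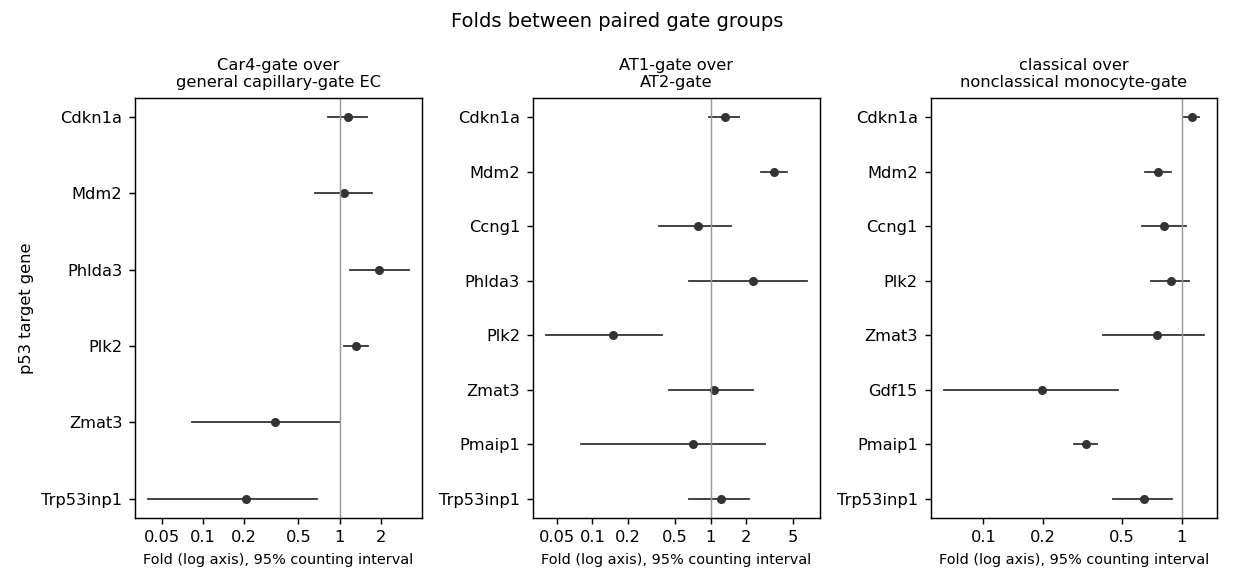
Folds of the p53 target genes between paired gate groups, on log axes, as points with 95% counting intervals, for genes with at least 20 UMIs over both sides and at least 1 on each. Mdm2 stands at 3.45 for AT1-gate over AT2-gate cells, Pmaip1 at 0.33 for classical over nonclassical monocyte-gate cells, and Phlda3 at 1.94 for Car4-gate over general capillary-gate endothelium.

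The Dppa5a-gate cells held p53 and most of its regulators at higher levels than the rest of the cells. They also held the pluripotency genes Pou5f1, at 418 CPM in Dppa5a-gate cells against 10.2 CPM in all other cells, and Nanog, at 231 against 5.75 CPM. Trp53 had 166 CPM in Dppa5a-gate cells (154 to 179), against 51.2 CPM in all other cells, a fold of 3.25 (3.00 to 3.53), and was above the other cells in 5 of 5 runs. Of the 10 regulators that passed, 9 of 10 were at least 1.5-fold higher, where 38.4% of 17763 genes were. Among them Mdm4, the Mdm2 partner that blocks p53, had a fold of 2.85, Usp7, which stabilises Mdm2 and p53, 4.19, and the damage kinases Chek1 and Chek2 7.87 and 5.87. Cdkn2a, whose Arf product restrains Mdm2, had 36.1 CPM in Dppa5a-gate cells against 0.878 CPM in all other cells, a fold of 41.1 (30.4 to 55.9). The kinases Atm and Atr had folds of 2.79 and 2.48, the p53 relative Trp73 17.6 from 24 UMIs on each side, and the phosphatase Ppm1d 1.39. The other relative, Trp63, had 6 UMIs in the whole table.

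The targets lay on both sides in the same cells. Their median fold was 2.10 for the 10 members and 1.98 for the 26 other targets, against 1.05 over all 17763 genes tested. Of the 10 members, 5 were at least 1.5-fold higher in Dppa5a-gate cells (38.4% of 17763 genes were), namely Ccng1, Phlda3, Eda2r, Zmat3 and Trp53inp1. Another 3 were at least 1.5-fold lower (36.6% of genes were). Phlda3 had 70.2 CPM in Dppa5a-gate cells against 10.9 CPM in all other cells (fold 6.47, 5.63 to 7.41). The 3 lower genes were Gdf15 (fold 0.20, 0.125 to 0.292), Pmaip1 (0.47, 0.399 to 0.551) and Plk2 (0.54, 0.432 to 0.661). The best known targets moved least: Cdkn1a had 230 CPM in Dppa5a-gate cells against 202 CPM in all other cells (1.14, 1.07 to 1.22), and Mdm2 110 against 91.5 CPM (1.20, 1.09 to 1.32). The 5 higher genes were above the other cells in 5 of 5 runs each. Of the 26 other targets 16 were at least 1.5-fold higher (38.4% of genes) and 6 lower (36.6%). Psrc1, a spindle protein, had 83.5 CPM in Dppa5a-gate cells against 4.45 CPM in all other cells, while Fas had 2.42 against 27.7 CPM and Sat1 45.7 against 531 CPM. These cells were also the deepest, and 130 of the 293 came from run 6. Cell cycle genes summed to 1078 CPM in Dppa5a-gate cells and 913 CPM in T-gate cells, the 2 groups with most of them, and the part of the cycle in the target levels was not tested.

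**Figure D4:**
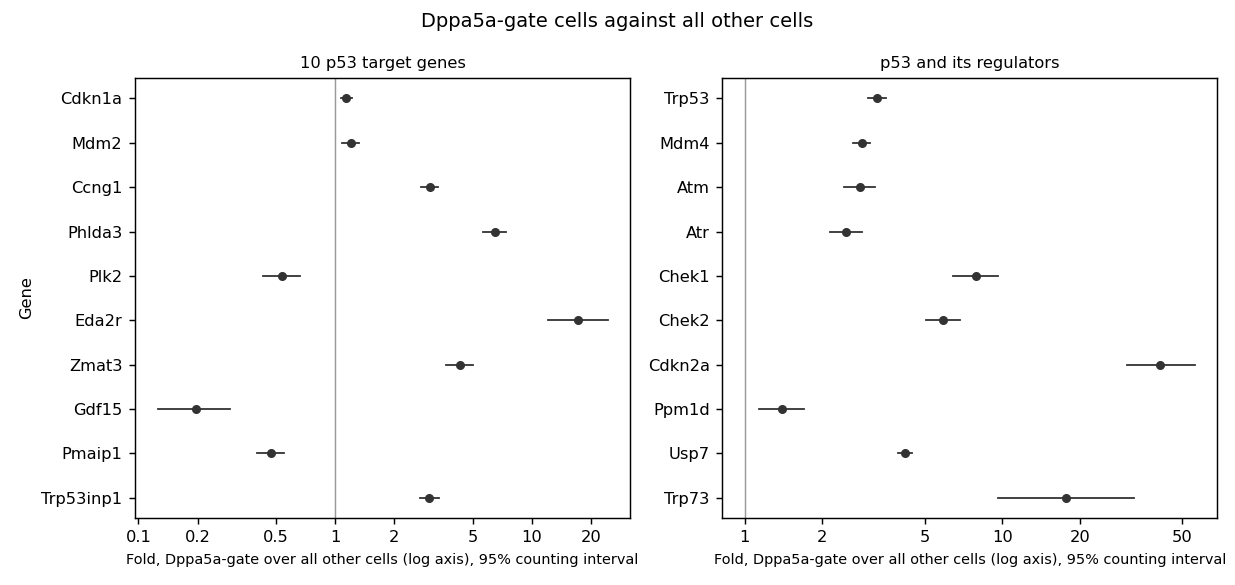
Fold of each gene in Dppa5a-gate cells over all other cells, on log axes, as points with 95% counting intervals, for the 10 p53 target genes (left) and for p53 and its regulators with at least 20 UMIs (right). The targets lie on both sides of 1, from 0.20 for Gdf15 to 17.1 for Eda2r, and all 10 regulators shown lie above 1.

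Whether the targets were found in the same cells was read by splitting each group by Cdkn1a. Cells were thinned to 2000 UMIs, so that deeper cells could not hold more of everything, and those with at least 1 Cdkn1a UMI (Cdkn1a-positive) were set against those with none. Over 7 groups, 40 pairs of gene and group passed 20 UMIs, of which 11 were at least 1.5-fold higher in Cdkn1a-positive cells and 1 at least 1.5-fold lower. The background differed by group: 4.11% of genes were at least 1.5-fold higher in alveolar macrophage-gate cells, 4.68% in classical monocyte-gate, 2.31% in nonclassical monocyte-gate, 3.67% in Dppa5a-gate and 3.47% in ungated cells, 9.82% in AT2-gate and 22.0% in neutrophil-gate cells. At least 1.5-fold lower were 4.31% of genes in alveolar macrophage-gate, 5.99% in classical monocyte-gate, 4.55% in nonclassical monocyte-gate, 10.6% in Dppa5a-gate, 11.6% in ungated, 9.61% in AT2-gate and 10.8% in neutrophil-gate cells. The background genes had at least 50 thinned UMIs in the group, while members needed only 20. Genes with fewer UMIs cross the 1.5-fold line more often by counting error, so the counts of members and these shares are not strictly alike. The same holds for the splits by other members below.

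Ccng1 was the gene above the 1.5-fold line in most groups. All splits pooled the cells of all runs, and levels differed by run. In neutrophil-gate cells Cdkn1a had 19.8 to 394 CPM by run and Ccng1 24.1 to 97.5 CPM. The part of the runs in the folds was not tested. In alveolar macrophage-gate cells it had 57.9 CPM in the 233 Cdkn1a-positive cells, against 32.2 CPM in the 667 negative cells (fold 1.80, 1.07 to 2.98). In Dppa5a-gate cells it had 192 CPM in positive cells against 102 CPM in negative cells (1.88, 1.15 to 3.06). In neutrophil-gate cells it had 104 CPM in positive cells against 39.8 CPM in negative cells (2.62, 1.40 to 5.04). Classical monocyte-gate cells gave 2.20 (0.879 to 5.44) from 23 UMIs, and ungated cells 1.43 (1.14 to 1.79), just under the line. In AT2-gate cells the fold was 0.67 with an interval of 0.076 to 2.77.

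Mdm2 had 144 CPM in Cdkn1a-positive alveolar macrophage-gate cells, against 78.7 CPM in negative cells (fold 1.83, 1.32 to 2.51). It differed by less than 1.5-fold in the other 6 groups, where the folds were 0.98 to 1.41, and in nonclassical monocyte-gate cells the interval was 0.766 to 1.24. Pmaip1 stood at 1.54 (0.521 to 4.16) in alveolar macrophage-gate cells and at 1.71 (0.738 to 3.85) in Dppa5a-gate cells. Trp53inp1 stood at 1.61 (1.00 to 2.54) in nonclassical monocyte-gate cells. The 1 lower pair was Zmat3 in Dppa5a-gate cells, at 0.63 (0.184 to 1.77). Zmat3 stood at 1.60 (1.08 to 2.35) in ungated cells and at 1.60 (0.616 to 3.89) in nonclassical monocyte-gate cells. Gdf15 went the other way in the cells that hold most of it, with 118 CPM in Cdkn1a-positive alveolar macrophage-gate cells against 169 CPM in negative cells (fold 0.70, 0.509 to 0.939). In nonclassical monocyte-gate cells it had 15.9 CPM in positive cells against 1.06 CPM in negative cells (15.1, 4.36 to 80.3), but this rests on 17 UMIs in 8 positive cells, up to 6 in 1 cell, and 3 UMIs in 2 negative cells. Pmaip1 in nonclassical monocyte-gate cells, its leading group, was nearly the same in both (320 CPM in positive and 284 CPM in negative cells; 1.13, 0.991 to 1.28).

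The immediate early gene Fos was also higher in Cdkn1a-positive cells of several groups, by 1.36-fold in neutrophil-gate, 1.42-fold in classical monocyte-gate, 1.23-fold in nonclassical monocyte-gate and 1.47-fold in ungated cells, and 1.12-fold in alveolar macrophage-gate cells. Of the other immediate early genes, Jun stood at 2.20 (1.82 to 2.67) in neutrophil-gate and 0.26 (0.051 to 0.858) in Dppa5a-gate cells. Atf3 stood at 1.85 (1.38 to 2.46) in AT2-gate and 0.68 (0.442 to 1.02) in alveolar macrophage-gate cells. The part of these genes in the splits was not tested. The proliferation gene Mki67 was lower in Cdkn1a-positive Dppa5a-gate cells, with 64.0 CPM in positive and 138 CPM in negative cells (fold 0.46, 0.219 to 0.898). In alveolar macrophage-gate cells Mki67 had a fold of 1.39 (0.873 to 2.16).

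Trp53 itself was not higher in Cdkn1a-positive ungated cells, with 41.7 CPM in positive and 55.1 CPM in negative cells (fold 0.76, 0.605 to 0.942). In alveolar macrophage-gate, nonclassical monocyte-gate and Dppa5a-gate cells its folds were 0.86, 0.95 and 0.98, with intervals that span 1. Classical monocyte-gate and AT2-gate cells gave higher Trp53 folds of 2.00 (0.938 to 4.20) and 1.92 (0.756 to 4.32), whose intervals also span 1. Neutrophil-gate cells gave 3.71 (1.19 to 13.6), from only 11 UMIs in positive and 5 in negative cells, under the 20 UMIs asked for.

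**Figure D5:**
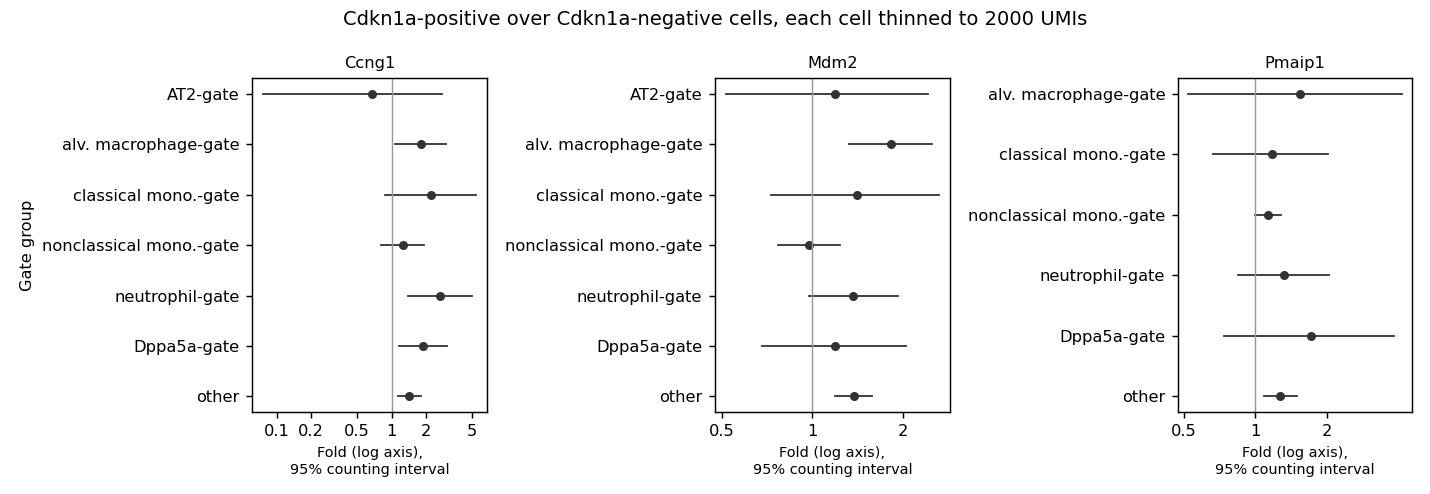
Fold of Ccng1, Mdm2 and Pmaip1 in Cdkn1a-positive over Cdkn1a-negative cells of each gate group, on log axes, as points with 95% counting intervals, for groups with at least 20 UMIs. Ccng1 lies above 1.5 in 4 groups, Mdm2 in alveolar macrophage-gate cells at 1.83, and Pmaip1 in alveolar macrophage-gate and Dppa5a-gate cells with intervals that span 1. The label other marks ungated cells.

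The same reading by other members was added after these values had been seen. Split by Mdm2, 42 pairs passed over 8 groups, of which 8 were at least 1.5-fold higher in Mdm2-positive cells and 2 lower. The background was 15.2% of genes in AT2-gate, 5.75% in alveolar macrophage-gate, 11.1% in classical monocyte-gate, 5.48% in nonclassical monocyte-gate, 5.82% in neutrophil-gate, 11.8% in T-gate, 7.44% in Dppa5a-gate and 10.9% in ungated cells. Neutrophil-gate cells with Mdm2 had Cdkn1a at 691 CPM, against 386 CPM in those without (fold 1.79, 1.43 to 2.23). In the reverse split of the same cells Mdm2 stood at 1.37 (0.972 to 1.93), under the line. Ccng1 and Trp53inp1 were above the line in 3 groups each. Trp53inp1 stood at 1.60 in AT2-gate (0.408 to 4.57), 1.52 in neutrophil-gate (0.797 to 2.81) and 1.56 in Dppa5a-gate cells (0.796 to 2.90). Ccng1 had 237 CPM in Mdm2-positive and 102 CPM in Mdm2-negative Dppa5a-gate cells (2.32, 1.39 to 3.81), a fold of 1.55 in ungated cells (1.18 to 2.01) and 1.74 in alveolar macrophage-gate cells (0.961 to 3.03). The 2 lower pairs were Ccng1 in AT2-gate cells, at 0.53 (0.013 to 3.32; 14.0% of genes were lower), and Plk2 in classical monocyte-gate cells, at 0.64 (0.074 to 2.57; 14.3%). In nonclassical monocyte-gate cells 0 of 7 members passed 1.5-fold in either direction (6.49% of genes were lower).

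Split by Gdf15, alveolar macrophage-gate cells had 1 of 7 members at least 1.5-fold higher (3.95% of genes were), Zmat3 at 1.68 (0.684 to 3.77), and Cdkn1a stood at 0.94 (0.699 to 1.25). Ungated cells had 1 of 8 higher (14.9%) and 3 lower (29.8%). Phlda3 had 29.8 CPM in the 151 Gdf15-positive ungated cells, against 4.56 CPM in the 4275 negative cells (fold 6.53, 2.78 to 13.7), while Pmaip1 had 6.62 CPM in positive and 76.7 CPM in negative cells (0.086, 0.010 to 0.313). Split by Pmaip1, 0 members were at least 1.5-fold higher in classical monocyte-gate (7.84%), nonclassical monocyte-gate (2.48%) and ungated cells (9.49%), and 1 was in neutrophil-gate cells (15.6%), Ccng1 at 1.51 (0.640 to 3.18). Lower by 1.5-fold were 1 member in nonclassical monocyte-gate (5.56%), 1 in neutrophil-gate (301 of 2320 genes) and 3 in ungated cells (21.1%). In Pmaip1-positive ungated cells Phlda3 held 0 UMIs, against 48 in negative cells, and Gdf15 stood at 0.072 (0.0086 to 0.261). Cdkn1a stood at 1.24 to 1.48 in these 4 groups. Split by Phlda3, 3 members were higher in alveolar macrophage-gate (11.6%), 1 in Dppa5a-gate (9.29%) and 3 in ungated cells (25.4%), from 32 to 56 positive cells a group. Lower were Trp53inp1 in Dppa5a-gate cells, at 0.64 (0.167 to 1.74; 15.7% of genes), and Pmaip1 in ungated cells, with 0 UMIs in positive and 658 in negative cells (30.9%). Among the higher ones Gdf15 had 144 CPM in Phlda3-positive and 26.1 CPM in Phlda3-negative ungated cells (5.53, 2.90 to 9.64). Ungated cells hold several cell types, and the part of their mixture in these splits was not tested.

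Across the 12 groups of at least 50 cells the 10 genes did not share a pattern. Pearson's r of log2(CPM + 10) over the 12 groups, which share libraries and differ in depth, was highest for Phlda3 with Zmat3 (0.69), Phlda3 with Eda2r (0.68) and Phlda3 with Plk2 (0.65), and was 0.57 for Cdkn1a with Mdm2. It was lowest for Phlda3 with Pmaip1 (-0.43). The level of Trp53 went with Zmat3 (0.59), Eda2r (0.56) and Phlda3 (0.55), and hardly with Cdkn1a (-0.08) or Mdm2 (-0.15). Trp53, Zmat3 and Eda2r were all highest in Dppa5a-gate cells, and Phlda3 was second highest there. The part of that single group in these values was not tested. Picking genes by the highest r with a member favours a shared leading group, which 9 of the 10 closest genes had. The genes most like each member were taken from those with at least 500 UMIs. They were Tspan7 (0.97), Pcdh17 and Stab1 for Plk2, Angptl4 (0.96), Htr2c and Trim29 for Gdf15, Rap1gap2 (0.93) for Pmaip1, N4bp1 (0.90) for Cdkn1a, Scoc (0.94) for Phlda3 and Gclm (0.96) for Zmat3. For the others they were Gcnt2 (0.85) for Mdm2, Aldoa (0.92) for Ccng1, Rnf168 (0.95) for Eda2r and Lrrc28 (0.92) for Trp53inp1.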

How the data were processed

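The deposited values were UMI counts per gene and cell, whole numbers that had not been normalized, from 10x 3' v3.1 libraries. The submitters' processing notes give Cell Ranger 1.3.1 and mm10; settings for strand and introns were not given in the sources used here. All counts showed a filter already applied by the authors: at least 800 genes and at most 9.99% mitochondrial UMIs in every cell. No further cell filter was used. Of 8 libraries, 0 matched a column, so no test, p-value or oxygen comparison was made. Counts were summed over the cells of a gate group and expressed as CPM. Levels carry exact Poisson intervals, shares Clopper-Pearson intervals and folds exact conditional binomial intervals, all at 95% and all for counting error only. A count of 0 was given a limit of 3 UMIs per group. A fold between groups counted from 1.5 with at least 20 UMIs over both sides. Splits of cells were made after thinning to 2000 UMIs, which left out 1423 shallower cells. Scrublet (scanpy 1.11.5, 20 components, expected share 5%) marked 56 cells (0.474%) by its automatic threshold, taken as failed, so doublets were kept, and removing 193 cells at 0.8% per 1000 cells was an alternative. Gene positions came from GENCODE (GRCm38). The scripts (Python 3.11.15, numpy 2.4.6, scipy 1.17.1) were tested on simulated data. Named were all members and regulators, and up to 3 other targets per comparison with the largest fold and at least 20 CPM on either side. Members, lists and gates were chosen with earlier results of these data known.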

Additional observations from a re-analysis of the deposited data

How the results depend on the processing

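Across 15 alternatives, 42 log2 folds gave 619 values, of which 572 stayed within the counting interval of the reported fold, 47 lay outside it and 0 of the called ones changed sign. The counts of 8 members in their leading group, 0 in classical over nonclassical monocyte-gate cells and 5 in Dppa5a-gate cells stayed within 1.5 times under every alternative run. The count of 1 in Car4-gate over general capillary-gate endothelium was 2 with no minimum of UMIs, 0 without run 1 and 0 without run 7. The count of 2 in AT1-gate over AT2-gate cells was 6 with cells of more than 1 gate put in the first gate they pass, 5 with the mean of per-cell CPM, 1 without run 5 and 1 without run 7. The 11 pairs of the Cdkn1a split were 17 with no minimum of UMIs and 23 without thinning. The causes were not tested, except that removing the minimum or the thinning adds pairs by construction. Mdm2 led in AT1-gate cells without run 6, and Eda2r in endothelium with neither capillary gate under the mean of per-cell CPM. No paired analysis was possible because the columns carry no replicate number, and replicates could not be left out for the same reason. Groups of about 100 cells and genes under 20 UMIs limit what the depth can show.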

Other observations

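The cells that passed the endothelial and the nonclassical monocyte gates together carried the endothelial pattern of p53 targets. The 177 cells that passed these gates and no other had Phlda3 at 110 CPM (89.5 to 134), Plk2 at 465 CPM (421 to 512), Cdkn1a at 156 CPM (132 to 185) and Pmaip1 at 15.8 CPM (8.61 to 26.4). In single-gate nonclassical monocyte-gate cells Phlda3 had 3.38 CPM and Pmaip1 241 CPM. Their endothelial markers Ramp2 and Egfl7 stood at 1211 and 1268 CPM, the leukocyte gene Ptprc at 146 CPM and the monocyte gene Cx3cr1 at 60.8 CPM.

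The 14 endothelial cells that passed both capillary gates had Plk2 at 597 CPM (441 to 792) and Gdf15 at 249 CPM (152 to 384). The Gdf15 value rests on 20 UMIs in 3 cells, of which 1 cell held 14. A few cells held much of Gdf15 elsewhere too: 11 of the 14 UMIs of T-gate cells and 23 of the 107 UMIs of nonclassical monocyte-gate cells lay in 1 cell each. Pmaip1 in AT2-gate cells was alike, with 14 of 22 UMIs in 1 cell.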
